A study of Mus musculus with 6 samples.

Results

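The genes described here are 32 members of the hypoxia response and of glycolysis, measured by RNA-seq in spheroids of 4T1, a mouse triple-negative breast cancer line. They were chosen by symbol, and each matched 1 of the 48820 Ensembl gene identifiers of the deposited table. They comprise 14 glycolytic enzymes, 6 genes of sugar and lactate transport or of flux control, and 12 other targets of the hypoxia-inducible factors (HIF). The study compared 3 libraries of wild-type spheroids (WT) with 3 of spheroids from a LATS1/2 double-knockout line (dKO), all kept in RPMI with 10% serum and antibiotics at 37 °C and 5% CO2. The labels number the libraries as biological replicates but name no separate cultures, no clones and no oxygen measurement. The spread behind each p-value is therefore that of 3 libraries a group and may be technical.

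HIF is a pair of an oxygen-sensitive alpha subunit and the constant partner ARNT. With oxygen present, prolyl hydroxylases of the EGLN family mark the alpha subunit for destruction through VHL. In low oxygen the pair accumulates, binds a short core motif near its targets, and raises glucose uptake, glycolysis, lactate release and pH control. LATS1 and LATS2 are the Hippo kinases that restrain the coactivators YAP and TAZ.

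Because HIF is known to act through that core, the promoters of members that moved in opposite directions are shown first. The 250 bases before each RefSeq start site (GRCm38.p6) were searched on both strands for ACGTG and GCGTG. A match can share bases with one on the other strand, as in CACGTG, and overlapping matches were joined. Capitals mark every match. Pgk1 (chrX:106186850-106187099, plus strand) and Ldha (chr7:46845554-46845803, plus strand, the first of its listed windows, inside the annotated gene) rose in the libraries labelled dKO. Car9 (chr4:43506776-43507025, plus strand), Ddit4 (chr10:59951771-59952020, minus strand) and Egln3 (chr12:54203875-54204124, minus strand, a few bases upstream of the GENCODE start) fell. The last bases of the Car9 and Ddit4 windows lie inside the annotated gene, and the only Car9 match is among them.
Pgk1: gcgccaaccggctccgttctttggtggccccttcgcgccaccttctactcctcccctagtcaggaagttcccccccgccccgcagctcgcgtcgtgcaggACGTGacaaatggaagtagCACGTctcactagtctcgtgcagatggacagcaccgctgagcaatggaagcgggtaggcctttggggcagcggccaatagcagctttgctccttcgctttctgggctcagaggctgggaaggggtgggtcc
Ldha: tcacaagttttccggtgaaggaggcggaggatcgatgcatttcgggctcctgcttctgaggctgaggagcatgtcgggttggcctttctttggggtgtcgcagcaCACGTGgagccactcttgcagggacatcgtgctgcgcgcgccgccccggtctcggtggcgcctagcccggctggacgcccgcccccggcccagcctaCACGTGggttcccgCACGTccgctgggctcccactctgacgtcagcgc
Car9: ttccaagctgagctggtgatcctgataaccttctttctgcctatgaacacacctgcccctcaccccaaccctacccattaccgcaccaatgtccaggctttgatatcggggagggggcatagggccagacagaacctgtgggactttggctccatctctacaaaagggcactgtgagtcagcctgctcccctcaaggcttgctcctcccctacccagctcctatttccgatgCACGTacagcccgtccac
Ddit4: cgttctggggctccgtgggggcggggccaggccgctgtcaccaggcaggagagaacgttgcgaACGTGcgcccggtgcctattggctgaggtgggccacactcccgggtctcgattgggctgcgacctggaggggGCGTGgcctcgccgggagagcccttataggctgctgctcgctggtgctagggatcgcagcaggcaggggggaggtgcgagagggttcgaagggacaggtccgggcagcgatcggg
Egln3: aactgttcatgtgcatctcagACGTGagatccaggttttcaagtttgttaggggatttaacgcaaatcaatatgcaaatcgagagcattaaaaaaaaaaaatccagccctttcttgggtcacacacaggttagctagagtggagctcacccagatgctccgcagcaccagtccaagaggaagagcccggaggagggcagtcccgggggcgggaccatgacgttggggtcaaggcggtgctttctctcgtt

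In the windows shown, matches of the rising genes began 150 and 131 bases before the start in Pgk1 and 145, 48 and 34 in Ldha. In the falling genes they began 187 and 115 bases before it in Ddit4. The only match in Car9 began 18 bases and that in Egln3 229 bases before the start. Of the 29 members with a RefSeq window, 17 held ACGTG, 19 held GCGTG and 27 held either, counting a gene with several start sites once. Of all 27025 genes with a window, 18.5% held ACGTG, 30.9% held GCGTG and 41.5% held either. Of the 10514 genes with a window that passed the count filter, 24.6%, 48.8% and 60.0% did. The windows of Gpi1 and Tpi1 held neither. Slc2a3, Ndrg1 and Nrn1 had no entry. A match describes letters only, and rising and falling members alike held them.

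Levels below are CPM, counts scaled to library depth with TMM factors, and fold changes are log2 values, dKO minus WT, ± SE. A gene was called at an adjusted p under 0.05 by edgeR's quasi-likelihood test with Benjamini-Hochberg adjustment over all genes tested. Library totals ran from 38194478 to 49630116 counts. Values piled up at exactly 4 counts, so 12 counts per library, 0.243 to 0.314 CPM, was taken as the floor of detection, for counting error only. Lats1 was lower in the libraries labelled dKO (153 ± 6.36 against 50.9 ± 2.55 CPM) and Lats2 higher (27.2 ± 4.01 against 77.9 ± 12.5 CPM), so the directions below are between libraries as labelled. Counts per gene do not check small deletions. The epithelial markers Krt8, Krt18, Krt19, Epcam and Cdh1 were at 96.0 CPM or more in every library. All 5 were called, Krt19 and Cdh1 higher and Krt8, Krt18 and Epcam lower in dKO, and their summed level was 4205 to 4657 CPM in WT and 3303 to 4005 CPM in dKO. Summed over 8 fibroblast markers, the level was 37.2 to 59.1 CPM in WT and 4.47 to 7.49 CPM in dKO, with Lum and Thy1 at 0 throughout. Only 3 of these 8 were tested, with 1 called higher and 2 lower, and 6 were under 1 CPM in every library. Summed over 6 leukocyte markers, the level was 3.30 to 16.3 CPM in WT and 77.0 to 209 CPM in dKO, mostly Csf1r, with Ptprc at 0 in WT and at most 0.418 CPM in dKO. The part of these marker differences in the results below was not tested. In bulk RNA, more cells of a type and more RNA per cell cannot be told apart. In a principal component analysis WT 2 and dKO 3 lay apart from their groups on the second component, which held 5.09% of the variance.

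Of the 32 members, 31 passed the count filter; 16 were called higher and 7 lower in dKO, and 8 were not called. Across all 15807 genes tested, 57.3% were called, 28.6% higher and 28.7% lower. A call with at least a 2-fold change was made for 12 members, against 26.1% of all genes tested. Every dKO library lay above every WT library in 18 members and below in 8, where 65.6% of all genes tested had groups that did not overlap in either direction. The median log2 fold change was 0.49 over the members tested and -0.00504 over all genes tested. The lists were chosen with earlier results of these data known, so these counts are descriptions.

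Glycolytic enzyme genes made up most of the rises. Of 14 enzymes, 10 were called higher and 3 lower, and the median log2 fold change was 0.82. The rises included Pfkl, Pfkp, Aldoa and every member enzyme from Tpi1 to Ldha, while Hk1, Hk2 and Aldoc fell. Their summed level was 5642, 6829 and 5552 CPM in WT 1, WT 2 and WT 3 and 10172, 10024 and 9491 CPM in dKO 1, dKO 2 and dKO 3, which is 1.65-fold higher. Every dKO sum lay above every WT sum, and WT 2 was the highest WT library. Pkm was the largest part of the sum, at a mean of 2496 CPM in WT and 3144 CPM in dKO. The sum takes each gene's own row, so it leaves out the copies of Gapdh and Eno1 described below.

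**Figure D1:**
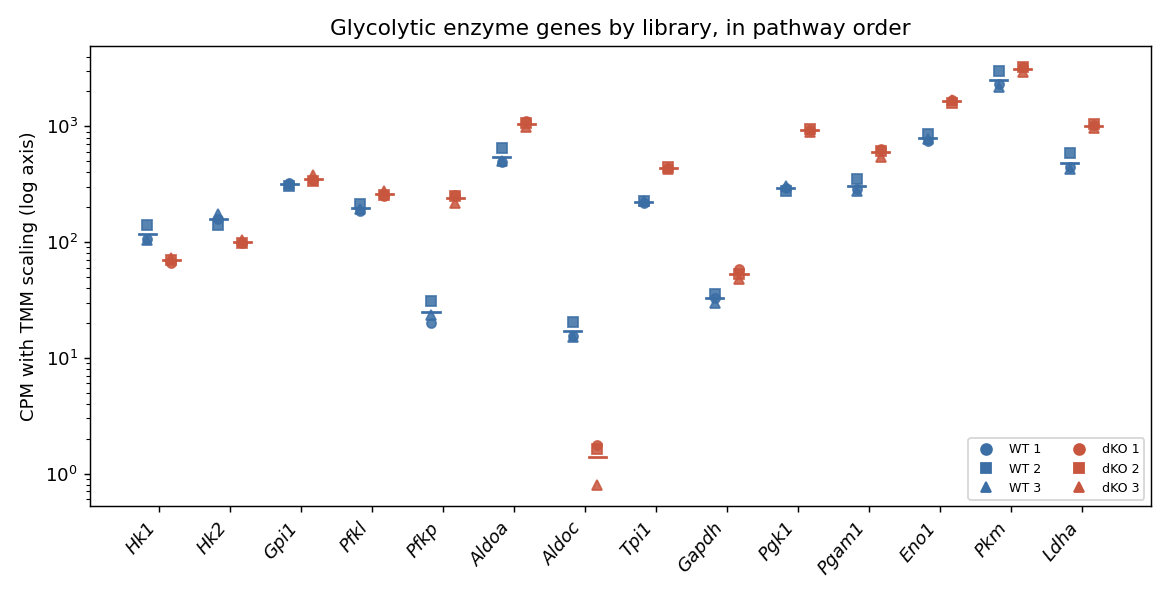
Levels of the 14 glycolytic enzyme genes in pathway order. The vertical axis is CPM with TMM scaling on a log axis, symbols are single libraries (WT blue, dKO red) and short bars are means of 3. The dKO symbols lie above WT from Tpi1 through Eno1 and for Ldha, and below WT for Hk1, Hk2 and Aldoc.

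At the entry of the pathway, Hk1 and Hk2, the hexokinases that trap glucose in the cell, fell together. Hk1 was at 107, 140 and 105 CPM in WT 1, WT 2 and WT 3 and at 66.6, 69.3 and 72.2 CPM in dKO. Hk2 was at 158, 140 and 173 CPM in WT and at 98.4, 98.9 and 105 CPM in dKO. The groups overlapped for neither gene, and the log2 fold changes were -0.76 ± 0.11 for Hk1 and -0.64 ± 0.09 for Hk2 (edgeR adjusted p = 0.000486 and 0.000257). Gpi1, the isomerase of the next step, had means of 317 and 353 CPM and was not called (0.16, 95% interval -0.00174 to 0.31, edgeR adjusted p = 0.0841), although every dKO library was above every WT library.

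Phosphofructokinase, the committed step, shifted its subunits. Pfkp, the platelet-type subunit (ENSMUSG00000021196, GRCm38 chromosome 13, 6579768 to 6648777), was at 19.9, 31.2 and 23.5 CPM in WT and at 256, 249 and 216 CPM in dKO. This was the largest rise among the enzymes, 3.28 ± 0.16 (edgeR adjusted p = 8.92e-07). Exons of Pfkp overlap those of Pitrm1 on the other strand, which also rose, from 57.7 to 156 CPM, and the use of strand in counting is not given in the sources used here. An exon overlap with another annotated gene was found for 14 of the 32 members. Pfkl, the liver-type subunit, rose less, from 197 ± 15.6 to 260.0 ± 13.4 CPM (SD, n = 3; 0.40 ± 0.08, edgeR adjusted p = 0.00219).

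Aldolase genes went opposite ways. Aldoa, the widely expressed aldolase, was at 489, 653 and 502 CPM in WT and at 1121, 1072 and 979 CPM in dKO, a change of 0.95 ± 0.12 (edgeR adjusted p = 0.000134). Aldoc, the aldolase best known from brain (ENSMUSG00000017390, chromosome 11, 78322968 to 78327781), was at 15.5, 20.4 and 15.0 CPM in WT and at 1.75, 1.62 and 0.791 CPM in dKO. It fell by 3.61 ± 0.30 on the log2 scale (edgeR adjusted p = 1.21e-05), and its dKO levels still lay above the floor. Tpi1, which interconverts the triose phosphates made by aldolase, rose from 223 ± 3.63 to 436 ± 11.9 CPM (0.97 ± 0.06, edgeR adjusted p = 2.42e-06).

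In the steps that yield ATP, Pgk1 rose most. Pgk1, the first ATP-making enzyme of the pathway (ENSMUSG00000062070, chromosome X, 106187100 to 106203699), was at 294, 274 and 308 CPM in WT and at 935, 949.5 and 888 CPM in dKO. Its log2 fold change was 1.66 ± 0.07 (edgeR adjusted p = 2.85e-07). Its promoter, shown above, holds 2 ACGTG matches, and so does that of Hk2, which fell. The promoter of Pfkp, the enzyme that rose most, holds 0 ACGTG but 3 GCGTG matches. Pgam1, the mutase that follows Pgk1 in the pathway, rose from 305 ± 39.3 to 596 ± 46.8 CPM (0.97 ± 0.10, edgeR adjusted p = 5.73e-05). Eno1, the main enolase (ENSMUSG00000063524, chromosome 4, 150236721 to 150248879), was at 751, 860 and 772.5 CPM in WT and at 1677, 1587 and 1681 CPM in dKO (1.05 ± 0.07, edgeR adjusted p = 4.56e-06).

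The last enzymes differed in how firmly they moved. Pkm, the pyruvate kinase gene and the most abundant member per exon length in both groups, was at 2309, 2993 and 2186 CPM in WT and at 3265, 3246 and 2921 CPM in dKO. The groups overlapped because WT 2 lay above dKO 3, and the rise of 0.33 ± 0.12 was called (edgeR adjusted p = 0.0371) but not without WT 1, WT 3, dKO 1 or dKO 2 (edgeR adjusted p = 0.107 to 0.138). Ldha, which turns pyruvate into lactate (ENSMUSG00000063229, chromosome 7, 46841475 to 46855627), was at 450, 585 and 424 CPM in WT and at 1034, 1043 and 960.3 CPM in dKO. It rose by 1.06 ± 0.12 (edgeR adjusted p = 7.38e-05) with no overlap between groups.

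Gapdh and Eno1 need their near-identical copies to be read. Gapdh, the oxidizing enzyme of the pathway and a common reference gene (ENSMUSG00000057666, chromosome 6, 125161715 to 125166467), was listed at 33.0, 35.6 and 29.7 CPM in WT and at 58.1, 52.8 and 48.4 CPM in dKO. Per exon length its own row was at 7.92 CPM per kb in WT and 12.9 in dKO, where Tpi1 was at 81.1 and 158. In the M21 transcripts, 92 other genes, mostly processed pseudogenes, matched a Gapdh transcript at 95% identity or more over at least 300 bases, and 87 of them were in the table. These copies held 97.3 to 97.8% of the joint counts in each library. With the copies added, Gapdh reached 1320 ± 35.4 CPM in WT against 2306 ± 82.2 CPM in dKO, and its log2 fold change went from 0.70 ± 0.11 (edgeR adjusted p = 0.0005) to 0.80 ± 0.06 (edgeR adjusted p = 9.24e-06). The level of Gapdh thus rests on where reads of its copies were placed, while its direction was the same with and without them.

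For Eno1, 3 listed copies held 43.1 to 44.9% of the joint counts. The retrogene Eno1b, identical over 1736 bases, and the processed pseudogene Gm4735, identical over 1302 bases, held nearly all of these. With them added, Eno1 reached 1428 ± 101 CPM in WT against 2951 ± 69.99 CPM in dKO, with the same log2 fold change of 1.05 ± 0.07. Copies held 3.26 to 6.04% of the joint counts of Pgam1 and Pgk1, and 1.06% or less for Gpi1, Tpi1, Pkm, Ldha and Bnip3. No other member had such a copy.

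**Figure D2:**
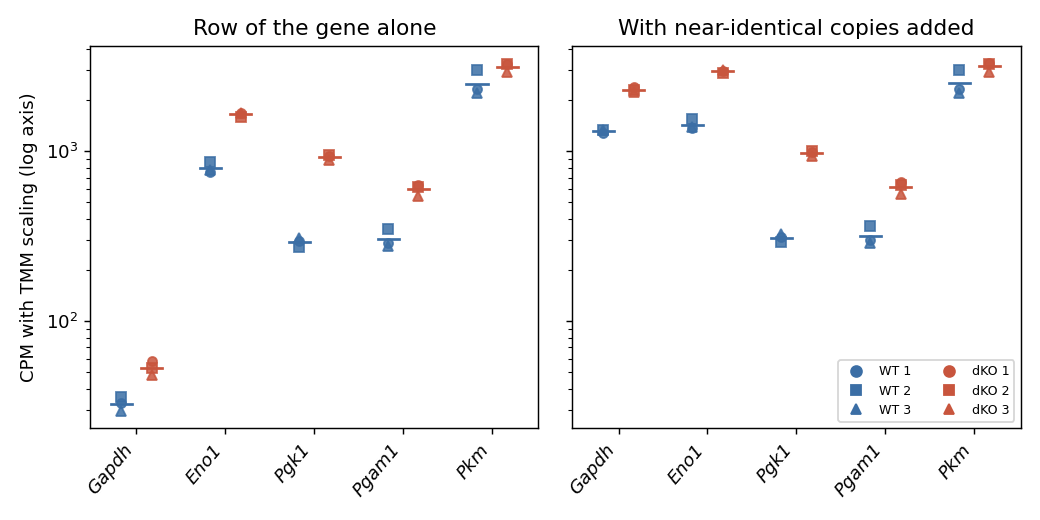
Levels of 5 enzyme genes from their own row (left) and with near-identical annotated copies added (right), as CPM with TMM scaling on a log axis; symbols are libraries and short bars means of 3. Gapdh moves from 53.1 to 2306 CPM in dKO and Eno1 from 794 to 1428 CPM in WT, with dKO above WT in both panels.

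Within families of related enzymes, shares were compared after scaling counts by merged exon length, with an exact two-sided permutation test over libraries that cannot go below p = 0.10 at 3 against 3. Pfkp made up 4.12, 4.86 and 4.95% of the phosphofructokinase counts (Pfkl, Pfkm and Pfkp) in WT and 29.2, 28.2 and 26.0% in dKO (exact permutation p = 0.10). Aldoc made up 2.69 ± 0.0801% of aldolase counts in WT and 0.115 ± 0.0376% in dKO (exact permutation p = 0.10). Hk2 was the larger part of the hexokinase pair in both groups, at 67.8, 58.9 and 70.2% in WT and 67.9, 67.1 and 67.5% in dKO (exact permutation p = 0.90), so the fall of Hk1 and Hk2 left their proportion within the spread of WT. Ldhb was at 0 or under the floor in every library, so Ldha made up 99.9% or more of this pair. Over the 6 shares compared, the smallest p after Benjamini-Hochberg adjustment of these exact tests was 0.15.

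**Figure D3:**
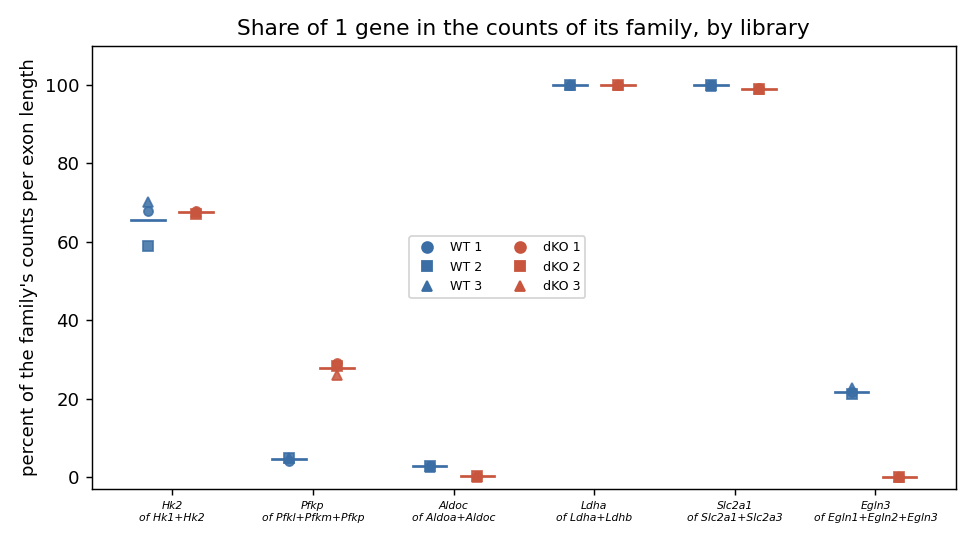
Share of 1 gene in the length-scaled counts of its family, in percent; symbols are libraries and short bars means of 3. Pfkp rises from 4.64 to 27.8% on average and Egln3 goes from 21.8% to 0, while Hk2 and Ldha keep their place.

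Among genes that feed or steer the pathway, 2 of 6 were called higher, none lower and 4 not called, at a median log2 fold change of 0.45. The share called higher over all genes tested was 28.6%. Pfkfb3, the bifunctional enzyme that makes the activator of phosphofructokinase (ENSMUSG00000026773, chromosome 2, 11471433 to 11554077), was at 2.72, 3.82 and 2.44 CPM in WT and at 55.3, 55.0 and 75.8 CPM in dKO. It rose by 4.38 ± 0.21 (edgeR adjusted p = 5.01e-07), with dKO 3 the highest library. Its relative Pfkfb4 had similar means, 13.4 ± 2.03 and 12.1 ± 1.59 CPM, and was not called (-0.15, 95% interval -0.52 to 0.23, edgeR adjusted p = 0.471). Pfkfb3 thus lay below Pfkfb4 in WT and above it in dKO, also per exon length (0.396 against 2.75 CPM per kb in WT, 8.21 against 2.48 in dKO).

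Slc2a1, the main glucose transporter of most cells, was at 69.2, 112 and 70.4 CPM in WT and at 106, 108 and 90.0 CPM in dKO. WT 2 exceeded all dKO libraries, and Slc2a1 was not called (0.27 ± 0.19, edgeR adjusted p = 0.256). Without WT 2 it was called at 0.53 (edgeR adjusted p = 0.00193). Slc2a3, a high-affinity glucose transporter, had 0, 0 and 9 counts in WT and 64, 93 and 80 counts in dKO, or 1.67, 2.29 and 1.86 CPM. It was called higher (edgeR adjusted p = 0.00266), but every WT library lay under the floor, so its fold size is not given. Slc16a3, a lactate exporter known as a HIF target, had 4 to 24 counts in the 6 libraries, near the floor, and no difference was detectable at this depth (edgeR adjusted p = 0.513).

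Pdk1, the kinase that turns off pyruvate dehydrogenase, was at 31.8, 27.4 and 33.8 CPM in WT and at 36.1, 38.8 and 37.3 CPM in dKO. The groups did not overlap, but the rise of 0.27 ± 0.10 missed the threshold (95% interval 0.03 to 0.51, edgeR adjusted p = 0.0509), and it passed under 6 of 18 alternatives.

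The other HIF targets split evenly, as did all genes tested (28.6% higher and 28.7% lower). Of these 12 targets, 4 were called higher, 4 lower, 3 not called and 1 not tested, with a median log2 fold change of 0.26. Their summed level was 932, 897 and 935 CPM in WT and 807, 803 and 868 CPM in dKO, 0.896-fold of WT. This sum rests on Ddit4: without it, a choice made after its values were seen, the other 11 genes summed to 571, 518 and 594 CPM in WT and 729, 727 and 776 CPM in dKO, 1.33-fold higher.

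**Figure D4:**
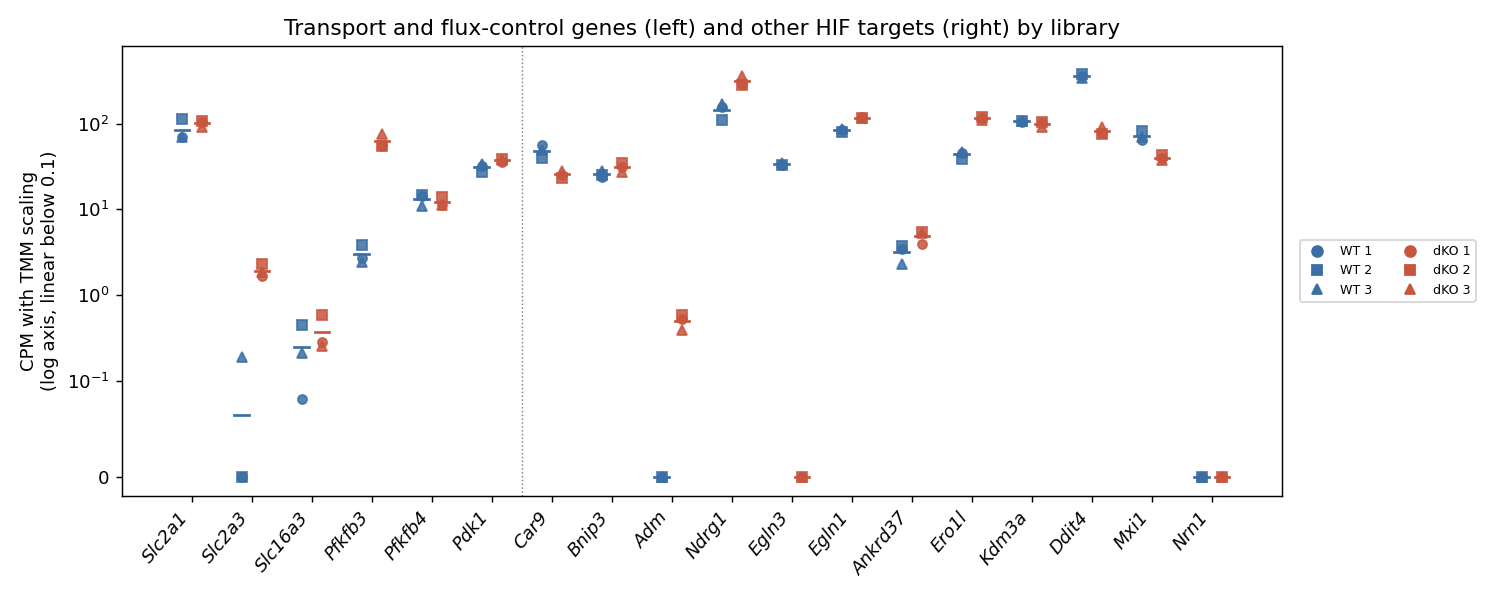
Levels of the transport and flux-control genes (left of the dotted line) and of the other HIF targets (right) as CPM with TMM scaling, on a log axis that is linear below 0.1; symbols are libraries and short bars means of 3. Egln3 drops to 0 in dKO, Adm appears only in dKO at under 0.6 CPM, and Nrn1 is at 0 in all 6 libraries.

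The largest fall was in Egln3, a prolyl hydroxylase that is itself induced by HIF (ENSMUSG00000035105, chromosome 12, 54178981 to 54203860). It was at 32.5, 33.3 and 35.0 CPM in WT and at 0 counts in every dKO library, at least 113-fold lower against the floor of 12 counts per library (edgeR adjusted p = 1.95e-07). Egln1, the main oxygen sensor of the same family, moved the other way, from 83.2 ± 3.86 to 117 ± 2.39 CPM (0.49 ± 0.07, edgeR adjusted p = 0.000323). Egln3 therefore made up 21.6, 21.0 and 22.7% of the length-scaled counts of Egln1, Egln2 and Egln3 in WT and 0% in dKO (exact permutation p = 0.10).

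Ddit4, an inhibitor of mTORC1 induced by low oxygen and other stresses (ENSMUSG00000020108, chromosome 10, 59949669 to 59951834), was at 362, 379 and 341 CPM in WT and at 78.4, 75.5 and 92.0 CPM in dKO. It fell by 2.14 ± 0.09 on the log2 scale (edgeR adjusted p = 2.85e-07). Per exon length its mean was 205 CPM per kb in WT and 46.7 CPM per kb in dKO.

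Car9, the tumour carbonic anhydrase that regulates pH and a standard marker of hypoxia (ENSMUSG00000028463, chromosome 4, 43506966 to 43513729), was at 56.0, 39.3 and 48.6 CPM in WT and at 25.4, 23.4 and 28.1 CPM in dKO. It fell by 0.91 ± 0.14 (edgeR adjusted p = 0.000537) with no overlap. Gm12454, which overlaps it on the other strand, had means of 1.94 CPM in WT and 0.624 CPM in dKO. Mxi1, a repressor that opposes MYC, fell from 72.1 ± 8.55 to 40.2 ± 2.84 CPM (-0.84 ± 0.11, edgeR adjusted p = 0.000152).

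The rises were in Ero1l, Ndrg1, Egln1 and Adm. Ero1l, also called Ero1a, an oxidase that forms disulfide bonds in the endoplasmic reticulum (chromosome 14, 45283087 to 45318771), was at 45.4, 38.6 and 47.0 CPM in WT and at 117, 119 and 109 CPM in dKO. It rose by 1.40 ± 0.09 (edgeR adjusted p = 3.31e-06). Ndrg1, a stress-responsive gene widely used as a hypoxia marker, was at 155, 111 and 170 CPM in WT and at 292, 282 and 361 CPM in dKO (1.10 ± 0.16, edgeR adjusted p = 0.000578). WT 2 was the lowest and dKO 3 the highest library for Ndrg1, and the groups did not overlap.

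Adm, the gene of the vasodilator peptide adrenomedullin, had 0 counts in every WT library and 20, 24 and 17 counts in dKO, at most 0.59 CPM. It was called higher (edgeR adjusted p = 0.00152), at least 1.89-fold against the floor, and its level was low in both groups. Nrn1, a neuritin gene induced by hypoxia in other cells, had 0 counts in all 6 libraries, which allows up to 0.243 to 0.314 CPM.

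Of the members not called here, Bnip3, a mitophagy receptor, had means of 25.9 and 30.9 CPM (0.26, 95% interval -0.01 to 0.53, edgeR adjusted p = 0.095), and was called without dKO 3 (0.35, edgeR adjusted p = 0.033). Ankrd37, an ankyrin-repeat gene, had means of 3.20 and 4.93 CPM (0.63, 95% interval 0.02 to 1.23, edgeR adjusted p = 0.0728). Kdm3a, a histone demethylase, had means of 106 and 98.6 CPM (-0.11, 95% interval -0.28 to 0.07, edgeR adjusted p = 0.26).

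**Figure D5:**
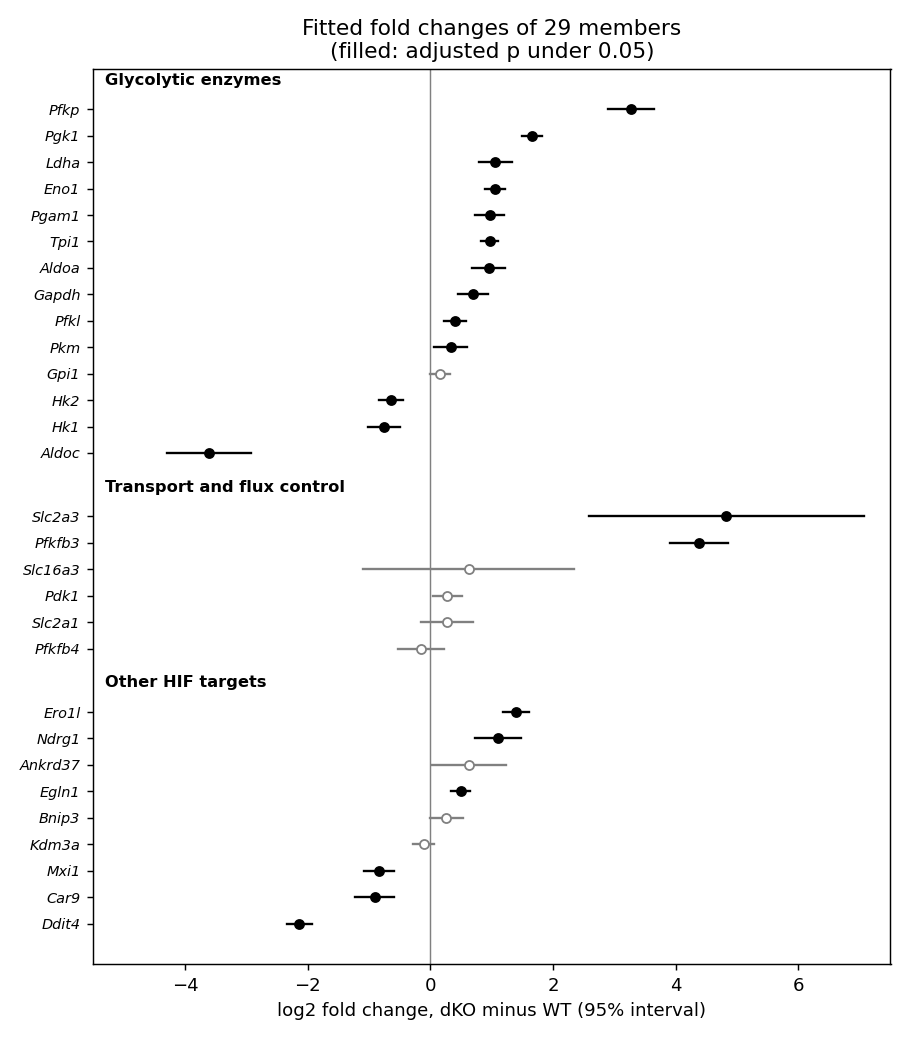
Fitted log2 fold changes, dKO minus WT, of the 29 tested members other than Egln3 and Adm, which were at 0 in every library of a group; lines are 95% intervals and filled points passed the threshold. Enzymes called higher run from Pkm at 0.33 to Pfkp at 3.28, while other HIF targets lie on both sides, from Ddit4 at -2.14 to Ero1l at 1.40.

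Genes of the HIF machinery differed in direction. Hif1a, the alpha subunit gene, was at 191, 249 and 168 CPM in WT and at 222, 228 and 199 CPM in dKO and was not called (0.10, 95% interval -0.21 to 0.40, edgeR adjusted p = 0.579). Without WT 2 it was called at 0.27 (edgeR adjusted p = 0.0305), and without WT 3 its sign turned (-0.025). Epas1, which encodes the other main alpha subunit, was at 0 in all libraries but dKO 3, where it was under the floor. Arnt fell from 75.3 ± 1.22 to 63.2 ± 1.41 CPM (-0.25 ± 0.07, edgeR adjusted p = 0.0121), a call lost without WT 1 (0.0508) or dKO 1 (0.0581). Vhl was at 26.7 and 24.9 CPM (edgeR adjusted p = 0.457). HIF activity is set largely by protein stability, which counts per gene do not show.

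Of 15 machinery genes, 12 were tested, with 2 higher, 5 lower and 5 not called. Over all genes tested, 57.3% were called, 28.6% higher and 28.7% lower. These shares also stand beside the counts of the lists that follow. Cited2, which competes with the HIF alpha subunit for the coactivators CBP and p300, rose from 97.8 ± 5.39 to 254 ± 15.7 CPM (1.38 ± 0.08, edgeR adjusted p = 1.15e-06). The genes of those coactivators fell. Crebbp went from 67.2 ± 0.767 to 34.9 ± 2.97 CPM (-0.94 ± 0.09, edgeR adjusted p = 2.58e-05). Ep300 went from 146 ± 10.7 to 103 ± 3.99 CPM (-0.50 ± 0.08, edgeR adjusted p = 0.000518).

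Of 28 further HIF targets that are not members, 22 were tested, with 11 higher, 6 lower and 5 not called, at a median log2 fold change of 0.41. Hmox1, the heme oxygenase gene, climbed to 83.7 ± 11.0 CPM from 4.36 ± 1.15 in WT (4.26 ± 0.20, edgeR adjusted p = 4.45e-07). Bhlhe41, a clock-linked repressor, fell from 104 ± 13.1 to 5.57 ± 1.53 CPM (-4.22 ± 0.21, edgeR adjusted p = 7.93e-07). Several of these genes also respond to pathways other than HIF.

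Around the enzymes, 31 other genes of glycolysis were listed, of which 16 were tested, 8 higher, 3 lower and 5 not called, at a median of 0.69. Eno3, an enolase best known from muscle, climbed to 289 ± 11.8 CPM from 68.6 ± 12.8 in WT (2.07 ± 0.12, edgeR adjusted p = 1.83e-06). Tigar, a phosphatase that slows glycolysis, reached 27.2 ± 2.61 CPM from 7.35 ± 0.553 in WT (1.89 ± 0.13, edgeR adjusted p = 4.22e-06). Eno1b, the near-identical copy of Eno1, climbed to 703 ± 23.3 CPM from 344 ± 27.1 in WT (1.03 ± 0.08, edgeR adjusted p = 6.03e-06), and over their identical stretch its reads cannot be told apart from those of Eno1.

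Genes of pyruvate oxidation and the TCA cycle rose alongside: of 25 tested, 19 were higher, 1 lower and 5 not called, at a median of 0.53. Idh3a, a subunit of isocitrate dehydrogenase, climbed to 200.2 ± 22.1 CPM from 69.9 ± 3.51 in WT (1.52 ± 0.09, edgeR adjusted p = 2.16e-06). Dld, a shared subunit of pyruvate and oxoglutarate dehydrogenases, reached 221 ± 11.6 CPM from 102 ± 4.59 in WT (1.12 ± 0.07, edgeR adjusted p = 2.63e-06). Mdh2, mitochondrial malate dehydrogenase, reached 446 ± 13.2 CPM from 243 ± 12.4 in WT (0.88 ± 0.07, edgeR adjusted p = 7.53e-06). Of 7 pentose phosphate genes, 4 were higher and 3 not called, at a median of 0.36. Rpia, which makes ribose phosphate, climbed to 168 ± 14.7 CPM from 24.6 ± 6.13 in WT (2.77 ± 0.18, edgeR adjusted p = 4.32e-06). Pgd, which makes NADPH, reached 228 ± 3.35 CPM from 119 ± 1.99 in WT (0.94 ± 0.06, edgeR adjusted p = 2.69e-06). Rpe, an epimerase, reached 59.7 ± 7.13 CPM from 41.7 ± 4.99 in WT (0.52 ± 0.12, edgeR adjusted p = 0.00504).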

How the data were processed

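Total RNA from 6 spheroid libraries was sequenced. The authors deposited raw estimated counts per gene, all whole numbers. HISAT2 2.2.1, StringTie 2.2.1 and GRCm38 (mm10) are named, in no role, per the submitters' processing notes. The sources used here do not give how reads were counted or with which annotation and strand setting. The deposited files by sample equalled the series table in all 6 libraries. GENCODE M21 gave symbols, positions and merged exon lengths for 48144 of 48820 identifiers. The other 676 held 0.0293% of counts.

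The fit used edgeR 4.0.16 in R 4.3.3: TMM normalization, filterByExpr by group, robust quasi-likelihood dispersions and genotype as the only term. SE was taken as the size of a log2 fold change over the root of its F statistic. The procedure was tested on simulated data in which far fewer genes changed than were called here. That test does not give the error rate in these data. DESeq2 1.42.0, limma 3.58.1 (voom) and other alternatives were run. Near-identical copies were found with blastn, an alternative chosen after seeing the data.

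The members, lists and tests were chosen with earlier results of these data known. All 32 members were named, with every library given for called members of at least 1 log2 unit and for Slc2a1, Ldha, Pdk1, Car9, Hk2 and Adm, and, beyond that rule, for Hk1, Aldoa, Pkm, Gapdh and Hif1a. From each further list the 3 genes with the smallest adjusted p were named, except 1 that is not reported here, besides Hif1a, Epas1, Arnt and Vhl. A TCA cycle gene listed as Pc matched no symbol and was not analysed here. Promoter windows came from RefSeq.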

Additional observations from a re-analysis of the deposited data

How the results depend on the processing

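The 31 tested members were fitted under 18 alternatives, giving 554 values: 533 kept both direction and call, 11 lost the call, 10 gained it and 0 changed sign, and 22 members kept their call in all. Counts of called members by list stayed within 1.5 times the reported ones except in the test against a 1.5-fold change. That test asks for larger changes, and called 1 enzyme lower instead of 3 and 4556 of all genes instead of 9060. In it Hk1 and Hk2 lost their calls (edgeR adjusted p = 0.0822 and 0.267 against a 1.5-fold change), as did Pfkl, Gapdh, Pkm and Egln1. Over the libraries left out in turn, 9 to 10 enzymes, 2 to 3 transport and flux-control genes and 4 to 5 other HIF targets were called higher. Without length scaling the dKO minus WT difference in share was 35.8 percentage points for Pfkp against 23.2 with it, -2.87 against -2.57 for Aldoc, -1.80 against -0.879 for Slc2a1 and -18.8 against -21.8 for Egln3, since exon lengths weight these genes. The Hk2 share difference of 1.82 points became -1.55 without WT 2 and ranged up to 4.11 over the libraries left out. The Hif1a log2 fold change became -0.025 without WT 3 and ranged up to 0.27 (without WT 2); the cause was not tested.

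With the replicate number as a block, the same counts of members were called by list, 10 enzymes higher and 3 lower, 2 and 0 of the transport and flux-control genes, and 4 and 4 of the other HIF targets, and 8658 genes in all. The labels do not say whether same-numbered libraries share a culture or batch. Deviations from the group means of same-numbered libraries correlated at -0.0892, 0.0936 and 0.134, and those of differently numbered ones at -0.181 to 0.137. With 3 libraries a group, these values cannot decide whether the numbers mark a pairing. Depth limits Adm, Slc2a3, Slc16a3 and Nrn1, which lay near or under the floor in at least 1 group.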
